A study of Homo sapiens with 8 samples.

Results

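LINC00649 on chromosome 21 and LINC00239 on chromosome 14 are annotated long non-coding RNA genes that host predicted microproteins in the smORF table of this series. A smORF was taken as a member when its annotated host genes included either name, which gave 22 of 24199 smORFs, 19 in LINC00649 and 3 in LINC00239. The footprints came from ribosome profiling (Ribo-Seq) of Caco-2, a human cell line from a colon tumour whose confluent cultures acquire features of enterocytes, the absorptive cells of the gut. The 8 libraries fell into 4 groups of 2, all of the one cell line, with no genetic change named in the labels. One group was left undifferentiated. The other 3 were differentiated and served as control, received micelles without lipid, or received lipid micelles made with BSA, oleic acid and cholesterol. The loci were chosen by measured values, since the levels of their smORFs in differentiated control and undifferentiated cells were known when they were picked. That contrast is therefore a description for these smORFs, and counts past a threshold in it are given only for scale. The micelle comparisons are tested.

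A long non-coding RNA is a transcript without an annotated protein, and a smORF is a short open reading frame whose product is called a microprotein. Ribo-Seq sequences the RNA fragments that ribosomes shield from nuclease. Ribosomes move by codons, so footprints on a translated frame repeat with the codon, and RibORF scores that periodicity together with coverage. PhyloCSF compares aligned genomes and is positive where substitutions look like those of a conserved coding sequence. Footprint counts combine how much RNA is present with how many ribosomes sit on it, and in a bulk culture a change in the share of expressing cells and a change per cell cannot be told apart.

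The LINC00649 result turns on a pair of smORFs that begin alike and end differently. IEC_05820 (114 amino acids) and IEC_10767 (131 amino acids) both start at the ATG at hg38 chr21:33931424 on the plus strand and share a first exon of 319 bases, to 33931742, in 1 frame. IEC_05820 then ends in 23 bases of an exon at chr21:33945810-33945832, and IEC_10767 in 74 bases at chr21:33938225-33938298. They share 106 residues from the start and have 8 and 25 residues of their own. The 2 splice junctions are given with the last exon in capitals, since these bases are where the pair part.
IEC_05820: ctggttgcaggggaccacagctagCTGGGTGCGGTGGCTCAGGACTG
IEC_10767: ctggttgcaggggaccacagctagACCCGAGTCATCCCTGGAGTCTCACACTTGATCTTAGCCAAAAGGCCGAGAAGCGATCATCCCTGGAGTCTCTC

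IEC_05821 (14 amino acids) lies inside that first exon at chr21:33931627-33931668, from base 204 of the exon, in a different frame from both longer smORFs and with a GTT in place of ATG at its start. It is shown because the same footprints are counted for all 3. The window gives IEC_05821 in capitals, and the 42-base span follows in both frames, with the first base of each codon in capitals for IEC_05820 and for IEC_05821.
IEC_05821_window: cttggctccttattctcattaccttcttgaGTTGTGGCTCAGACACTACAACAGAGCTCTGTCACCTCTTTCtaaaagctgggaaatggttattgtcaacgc
IEC_05820_frame: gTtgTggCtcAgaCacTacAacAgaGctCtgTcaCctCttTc
IEC_05821_frame: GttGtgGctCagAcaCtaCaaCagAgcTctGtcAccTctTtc

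In LINC00239, 3 smORFs occupied 3 different frames of the same exons on the plus strand of chromosome 14. IEC_09743 (114 amino acids) spans chr14:101730455-101732243 over 4 exons, IEC_09744 (132 amino acids) spans chr14:101731806-101732460 over 2 exons, and IEC_09745 (35 amino acids) spans chr14:101731939-101732302 over 2 exons and lies wholly within IEC_09744. All 3 begin with ATG. The start of IEC_09744 and the whole of IEC_09745 are given with the start codon in capitals, followed by the 38 bases at chr14:101731939-101731976 that all 3 share, with the first base of each codon in capitals.
IEC_09744_start: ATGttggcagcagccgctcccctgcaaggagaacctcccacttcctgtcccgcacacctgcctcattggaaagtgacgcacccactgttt
IEC_09745: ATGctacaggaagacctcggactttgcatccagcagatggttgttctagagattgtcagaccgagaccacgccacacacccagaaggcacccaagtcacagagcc
IEC_09743_frame: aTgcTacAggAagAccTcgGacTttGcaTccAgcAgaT
IEC_09744_frame: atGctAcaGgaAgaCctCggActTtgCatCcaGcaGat
IEC_09745_frame: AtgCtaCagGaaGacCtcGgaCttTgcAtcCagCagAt

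**Figure D1:**
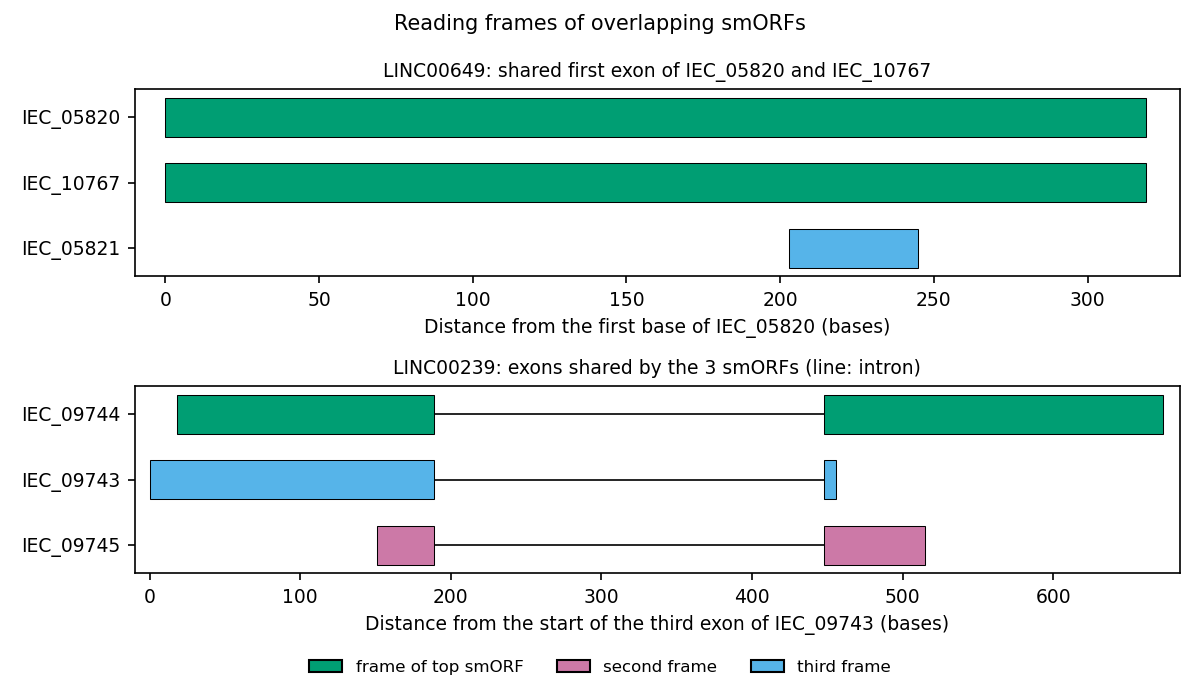
Reading frames of overlapping smORFs, with bars for exons placed by distance in bases and colours for the frame relative to the top smORF of each panel. IEC_05820 and IEC_10767 share 1 frame over 319 bases while IEC_05821 uses another, and the 3 LINC00239 smORFs use 3 frames.

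The other LINC00649 smORFs also overlapped, and 21 of the 22 members shared bases with another member. There were 27 overlapping pairs, 15 in the same frame and 12 in different frames, in 5 groups of neighbours. IEC_10701, IEC_10693 and IEC_10941 (8, 16 and 7 amino acids) share the last exon of IEC_05820 in its frame, and IEC_11183 (29 amino acids) shares the 74-base last exon of IEC_10767. IEC_10681, IEC_11162 and IEC_11033 (41, 44 and 32 amino acids) reach one last exon of 90 bases at chr21:33969237-33969326 through different first exons. They are given with that shared exon in capitals, because their counts are nearly one measurement.
IEC_10681: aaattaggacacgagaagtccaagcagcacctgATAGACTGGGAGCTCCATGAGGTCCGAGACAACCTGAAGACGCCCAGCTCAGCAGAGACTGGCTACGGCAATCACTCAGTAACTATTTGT
IEC_11162: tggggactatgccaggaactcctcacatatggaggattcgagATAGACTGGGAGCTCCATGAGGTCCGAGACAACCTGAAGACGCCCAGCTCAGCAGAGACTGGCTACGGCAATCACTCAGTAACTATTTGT
IEC_11033: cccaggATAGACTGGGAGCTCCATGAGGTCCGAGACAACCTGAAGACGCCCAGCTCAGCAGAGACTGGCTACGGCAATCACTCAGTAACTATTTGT

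IEC_10682, IEC_04986 and IEC_10958 (40, 51 and 50 amino acids) start at one ATG at chr21:33969523 and share 120 bases in 1 frame. IEC_10680 (63 amino acids) is the in-frame end of IEC_10777 (79 amino acids) over 189 bases, whereas IEC_04406 (134 amino acids) and IEC_04407 (84 amino acids) overlap by 77 bases in different frames. IEC_04985 (44 amino acids) overlaps the 90-base exon by 8 bases in another frame, and IEC_04987 (60 amino acids, chr21:33969754-33969933) overlaps no other member. All 22 lay wholly in exons of their host gene in GENCODE release 44, on its strand. An exon of another gene, ENSG00000249209, covers 137 bases of IEC_05820 and IEC_10767 on the opposite strand, and whether the counting used strand is not given in the sources used here.

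The RibORF scores of the members ran from 0.701 in IEC_11033 to 1.048 in IEC_10682, with a median of 0.954 against 0.897 over all 5393 smORFs classed as non-coding. IEC_05820 scored 0.923 and IEC_10767 scored 0.955, percentiles 57.0 and 67.0 of non-coding smORFs. The nested IEC_05821 scored 0.992, above both longer smORFs, which surround it in another frame and are scored over their whole length. In LINC00239 the order was IEC_09743 at 1.022, IEC_09744 at 0.952 and IEC_09745 at 0.772, the last at percentile 18.7. These are the highest scores deposited for each smORF, and where several were listed the lowest listed for IEC_05820 was 0.716, for IEC_10767 0.808, for IEC_05821 0.7 and for IEC_09743 0.701. The table lists scores without the library or group they came from, so scores and conservation could not be compared between the 4 groups. The authors predicted smORFs from combined Ribo-Seq data of several cell lines and blood cells. A listed score may thus come from cells other than Caco-2.

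None of the members had a positive PhyloCSF score. Of the 22, 19 carried a score, with means from -9.40 in IEC_11033 to -2.69 in IEC_10767 and a median of -7.89, against -7.30 over non-coding smORFs, of which 1.25% had a mean above 0. IEC_10767 and IEC_05820 (mean -3.09) stood highest, at percentiles 93.2 and 92.1 of non-coding smORFs, and IEC_05821 inside their first exon had -7.71. IEC_09743, IEC_09744 and IEC_09745 had -7.18, -8.56 and -8.32. The highest PhyloCSF listed was also below 0 in all 19, where 7.80% of non-coding smORFs were above 0. For 3 members the listed mean exceeded the listed maximum (6.20% of non-coding smORFs), IEC_05820 among them with a maximum of -4.84, and how positions without a score enter the mean is not given in the sources used here. The high rank of the pair is limited by this.

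**Figure D2:**
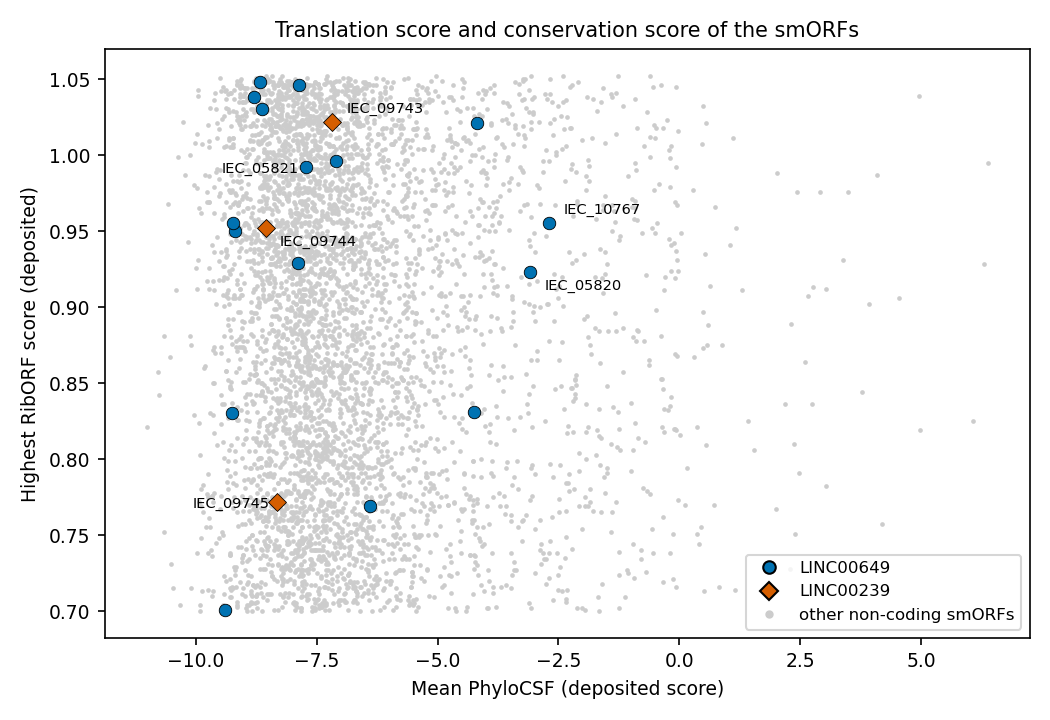
Highest RibORF score against mean PhyloCSF for the 19 members with a PhyloCSF score, circles for LINC00649 and diamonds for LINC00239, over the other non-coding smORFs in grey. All 19 members lie below 0 on the PhyloCSF axis, with IEC_10767 and IEC_05820 farthest to the right.

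Start codons and repeats were spread over the members as follows. An ATG began 13 of 22 (59.1%, against 62.8% of non-coding smORFs), and 9 began with another codon. The annotation marked a repeat element in 17 of 22 (77.3%, against 53.9%), and IEC_05821, IEC_10680, IEC_10682, IEC_04986 and IEC_04987 were the 5 without. Members were 7 to 134 amino acids long with a median of 47, against 40 for non-coding smORFs.

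Footprint-sized windows of 28 bases were looked up exactly in hg38 on both strands. Of the 22 members, 16 had windows at 1 site and none at several. IEC_10693 could not be judged, since all 21 of its windows cross its splice junction and lie at no genome site, and its last exon is shared with IEC_10701, whose 24 bases occurred at 2 sites. In IEC_05820, 161 of 315 windows (51.1%), those within bases 1 to 188, occurred at several sites, up to 2510, and in IEC_10767 178 of 366 (48.6%) did. None of the 15 windows of IEC_05821 did. In IEC_11183, 17 of 60 windows (28.3%) occurred at several sites, up to 123. The 21 bases of IEC_10941 as a whole occurred at 5 sites. The 74-base last exon of IEC_10767 and IEC_11183 also holds 34 bases, at chr21:33938248-33938281, that are exactly complementary to the first 34 bases of U2, a spliceosomal small nuclear RNA. How reads with several sites were treated is not given in the sources used here, and the part of such reads in the counts was not tested.

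The 8 libraries held 506382 to 884711 smORF counts each, so that a count of 0 allows up to 3.49 to 5.86 CPM (the count over the library total, scaled to 1e6 and by the trimmed mean of M values), counting error only. Replicates of a group differed by 2.51 to 3.25 times the counting noise per degree of freedom, and every pair differed beyond it. Host genes of smORFs were used to check the labels. Summed CPM over 5 of 10 cell division genes with a smORF was 7735 and 8129 in undifferentiated cells and 502 to 674 in the 6 differentiated libraries. Over 7 of 14 enterocyte genes it was 1512 and 1903 against 3237 to 5635, and over 5 of 6 intestinal epithelium genes 663 and 817 against 1304 to 1461. The list of other intestinal cells, with 2 of 6 genes, gave 36.2 and 55.1 against 84.1 to 118. The blood and stromal list, with 4 of 7 genes, summed to at most 13.0 in any library, with PTPRC at 0 in all. Single genes went against these sums. The enterocyte sum rested on APOA4 (5 and 3 counts against 546 to 1693) and FABP1 (275 and 219 against 756 to 1985), whereas APOA1 had 624 and 807 counts against 155 to 1029. In the epithelium list CDX2 had 35 and 41 counts against 275 to 562 and HNF4A 89 and 81 against 62 to 148. Of the other intestinal genes ASCL2 had 19 and 25 counts against 42 to 101, and LGR5 had 4 and 6 against 0 to 1. The part of these shifts in the members' levels was not tested.

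IEC_05820 of LINC00649 was counted in every library. Its counts were 75 and 67 in undifferentiated cells, 159 and 252 in differentiated control cells, 171 and 201 after micelles without lipid, and 175 and 296 with lipid micelles. The mean level was 118 ± 0.849 CPM (SD, n = 2, as for every group) in undifferentiated cells and 319 ± 11.96, 294 ± 22.7 and 302 ± 59.8 CPM in the other groups in that order. All 6 differentiated libraries stood above both undifferentiated ones, and the 3 differentiated groups overlapped in part. The ratio of differentiated control to undifferentiated cells was 2.71 (95% counting interval 2.23 to 3.30).

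IEC_10767 followed it closely. Its counts were 71 and 68, then 160 and 251, 176 and 213, and 189 and 297 in the same order of groups. The means were 116 ± 6.55, 320 ± 9.66, 307 ± 17.4 and 313 ± 45.96 CPM, and the ratio of control to undifferentiated cells was 2.77 (2.28 to 3.38). The 2 smORFs differed by at most 14 counts in any library.

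The smORFs that cover only the ends of the pair allowed the counts to be split by exon. Taking IEC_10701 from IEC_05820 left 70 and 63 counts in undifferentiated cells, 145 and 231 in control cells, 161 and 190 after micelles without lipid, and 172 and 276 with lipid micelles. Taking IEC_11183 from IEC_10767 left 70 and 62, 145 and 231, 160 and 191, and 170 and 277. The remainders were within 2 counts of each other in 8 of 8 libraries. Nearly all counts of both smORFs were thus one set of counts on the shared first exon, and IEC_05820 and IEC_10767 were not separate measurements of their levels. IEC_10701 and IEC_11183 add 1 and 13 bases outside the last exons, and the handling of reads at an edge is not given in the sources used here.

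**Figure D3:**
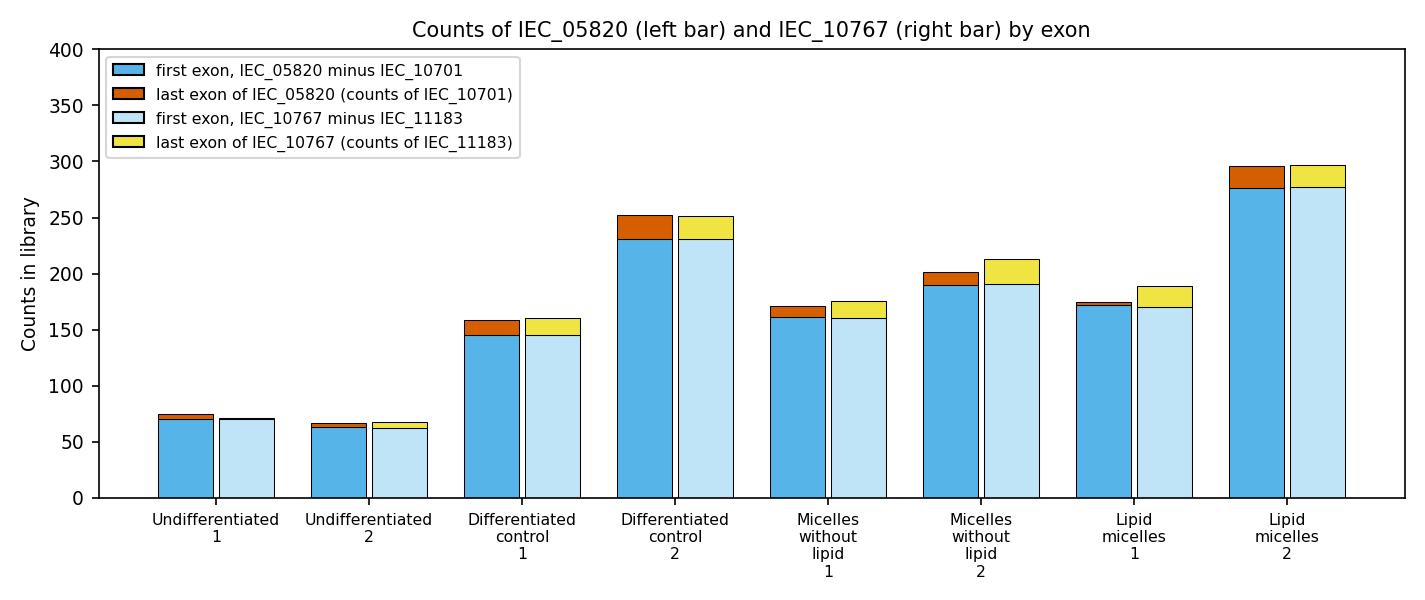
Counts in each library for IEC_05820 (left bar) and IEC_10767 (right bar), split into the shared first exon and the separate last exons. The first-exon parts of the 2 bars differ by at most 2 counts in each library, and the last exons are small throughout.

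The counts particular to each ending were few. The last exon of IEC_05820 held 88 of 1396 counts (6.30%, Wilson 95% interval 5.14 to 7.70) on 6.73% of its length. The last exon of IEC_10767 held 119 of 1425 (8.35%, 7.02 to 9.90) on 18.8% of its length. IEC_10701 and IEC_11183, which supply these counts, both hold bases found at several genome sites. The part of reads with several sites in these shares was not tested. IEC_10701 had 5 and 4 counts in undifferentiated cells, 14 and 21 in control cells, 10 and 11 after micelles without lipid, and 3 and 20 with lipid micelles. IEC_10693 had the same count as IEC_10701 in all 8 libraries, and IEC_10941 was at most 4 counts lower. Lipid micelle replicate 1 was lowest at 3 counts, 1.71% (0.580 to 4.92) of IEC_05820 there, where the other libraries had 5.47% to 8.81%. Its interval overlapped those of the other libraries except the differentiated control ones (5.32 to 14.2 and 5.51 to 12.4). IEC_11183 had 1 and 6 counts in undifferentiated cells, 15 and 20 in control cells, 16 and 22 after micelles without lipid, and 19 and 20 with lipid micelles, with no low value in that library.

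IEC_05821 had the most counts for its length. Its counts were 28 and 16 in undifferentiated cells, 40 and 68 in control cells, 44 and 58 after micelles without lipid, and 44 and 64 with lipid micelles. The sum of 362 was 27.7% (25.3 to 30.2) of the 1308 counts on the first exon, on 13.2% of its length. The share was 23.2% to 40% in single libraries, above the length share in all 8. Bases 1 to 188 of that exon lie in windows found at several genome sites, and IEC_05821 lies outside them. The length share takes in those bases. The handling of reads at the edges of the short IEC_05821 span is not given in the sources used here. The part of reads at an edge, or of reads with several sites, in the excess was not tested. In undifferentiated cells the share was 33.1% (25.7 to 41.5) and in differentiated cells 27.1% (24.6 to 29.7), intervals that overlap. The means were 36.2 ± 11.0, 83.3 ± 7.24, 79.98 ± 0.297 and 69.9 ± 6.46 CPM, and the ratio of control to undifferentiated cells was 2.30 (1.61 to 3.34). Counts in this span cannot be assigned to 1 of the 2 frames from the deposited table.

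LINC00239 had fewer counts than the LINC00649 pair, and 0 to 3 per smORF in each undifferentiated library. IEC_09744 had 3 and 3 counts in undifferentiated cells, 22 and 41 in control cells, 21 and 26 after micelles without lipid, and 26 and 28 with lipid micelles. Its means were 5.02 ± 0.436, 48.2 ± 7.29, 37.0 ± 1.503 and 35.6 ± 4.26 CPM, and control exceeded undifferentiated cells 9.83-fold (4.27 to 27.8). Undifferentiated levels were close to the limit that a count of 0 allows.

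IEC_09743 had 0 and 1 counts in undifferentiated cells, 19 and 35 in control cells, 24 and 12 after micelles without lipid, and 24 and 22 with lipid micelles. With 1 count in undifferentiated cells its ratio of 50.6 had an interval of 8.70 to 2034. IEC_09745 had 0 and 0 counts, then 9 and 9, 6 and 7, and 6 and 10, and was at least 5.62-fold higher in control than in undifferentiated cells against a floor of 3 counts over the group. For all 3, each differentiated library stood above both undifferentiated ones. IEC_09745 held 47 of the 170 counts of IEC_09744 (27.6%, 21.5 to 34.8) on 26.5% of its length, a share that does not differ from its length within the interval.

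**Figure D4:**
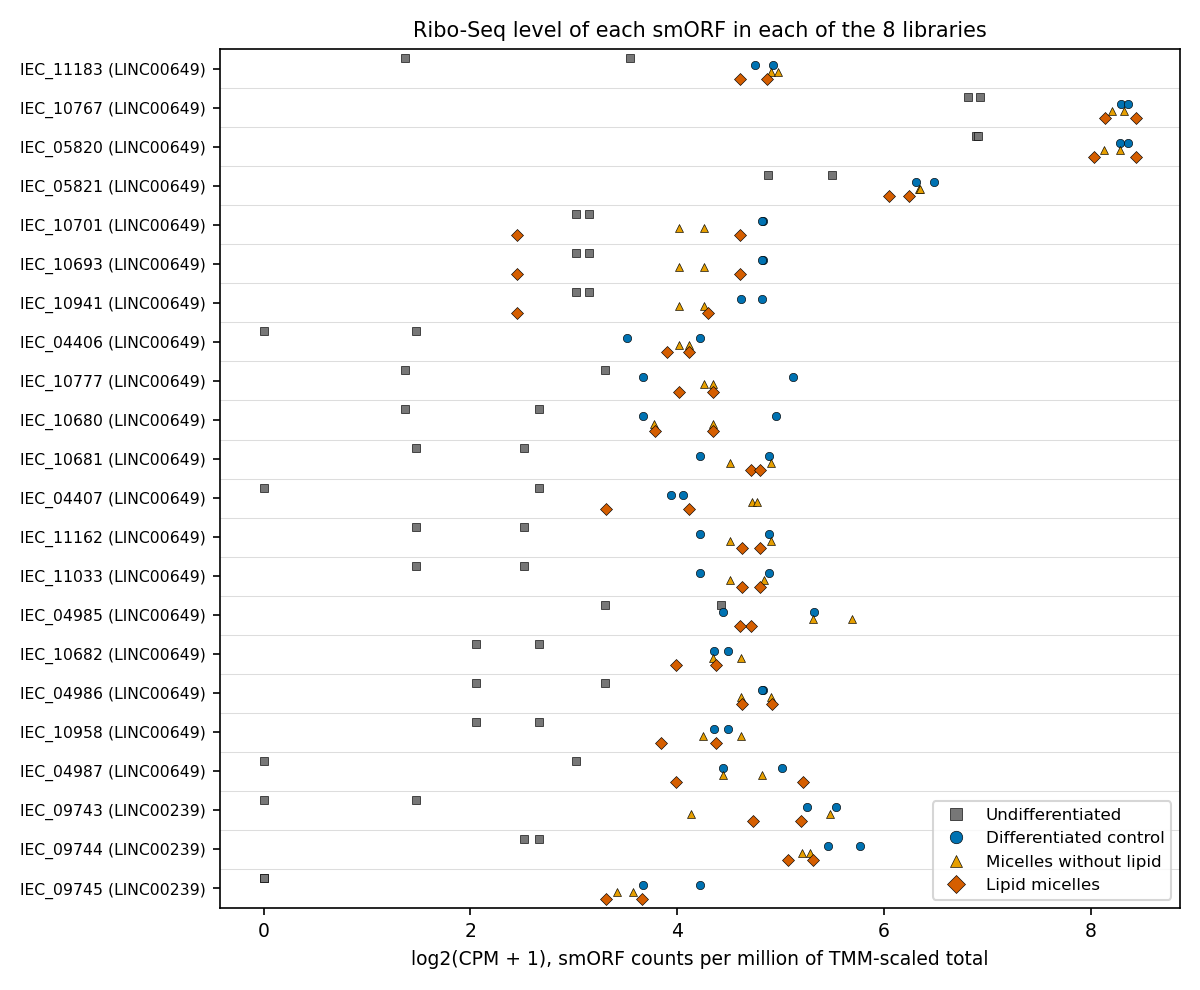
Level of each of the 22 smORFs in the 8 libraries in CPM on a log2 scale with an offset, coloured by group, with counts of 0 at its lowest point. The undifferentiated libraries lie lowest for 19 members, and the 3 exceptions are the smORFs on the last exon of IEC_05820.

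The remaining LINC00649 smORFs had lower counts, from 0 to 31 in a library. IEC_10681 had 3 and 1 counts in undifferentiated cells, 9 and 22 in control cells, 12 and 21 after micelles without lipid, and 17 and 23 with lipid micelles. IEC_11162 and IEC_11033 differed from it by at most 1 count in any library. IEC_10682 had 2 and 3, 11 and 15, 13 and 14, and 10 and 17 counts in that order. IEC_10958 was within 1 count of IEC_10682, and IEC_04986, which extends it by 33 bases, had 2 and 5, 14 and 21, 13 and 21, and 16 and 25. These smORFs thus shared most of their counts.

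IEC_10777 had 1 and 5 counts in undifferentiated cells, 6 and 26 in control cells, 10 and 14 after micelles without lipid, and 13 and 13 with lipid micelles, and IEC_10680 was 0 to 3 counts lower. IEC_04406 had 0 and 1, 9 and 8, 9 and 11, and 11 and 12, and IEC_04407 had 0 and 3, 8 and 11, 14 and 19, and 6 and 14. IEC_04987 had 0 and 4, 16 and 16, 15 and 15, and 10 and 31. In each of these the undifferentiated libraries were the lowest. IEC_04985 had 13 and 5, 20 and 16, 28 and 28, and 17 and 20, and its undifferentiated level was the closest to the rest.

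In all 22 smORFs both control libraries stood above both undifferentiated ones in CPM, as they did in 35.2% of all 15182 smORFs that passed the low-count filter. Pooled ratios of control to undifferentiated cells ran from 1.87 (1.04 to 3.50) in IEC_04985 to 50.6 in IEC_09743. IEC_09745 did not pass the filter. Of the 21 that did, 20 were past the thresholds of the edgeR fit (adjusted p under 0.05 and at least 1 higher on the log2 scale, as were 17.7% of all tested), with IEC_04985 the exception. The loci were picked with this contrast known and many members share reads, so these counts test nothing and nothing is read from them.

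Levels were ordered by CPM per kilobase of smORF. In control cells IEC_05821 led with 1984 ± 172, followed by IEC_10941 with 1209 ± 130, IEC_10701 with 1139 ± 1.66, IEC_05820 with 934 ± 35.0 and IEC_10767 with 813 ± 24.6 CPM per kilobase. The LINC00239 smORFs stood at 140 ± 39.7 for IEC_09745, 122 ± 18.4 for IEC_09744 and 121 ± 17.3 for IEC_09743, and IEC_04406 was last with 34.8 ± 12.7. Of the 21 neighbouring pairs in this order, 7 did not overlap between libraries in control cells, 3 in undifferentiated cells, 5 in the group given micelles without lipid and 3 in the group given lipid micelles. IEC_10941 and IEC_10701 overlapped in control cells, and so did the 3 LINC00239 smORFs. IEC_05821 was first in each of the 4 groups and overlapped its neighbour in none. The 3 leading smORFs in control cells are short, at 42, 21 and 24 bases. The handling of reads at an edge, and of reads with several sites as in IEC_05820 and IEC_10767, is not given in the sources used here. The part of either in this order was not tested.

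The micelle comparisons ask whether micelles, or the lipid they carry, alter the footprints on these loci in differentiated cells. No member was called in any of the 3 comparisons. Micelles without lipid against control, lipid micelles against control, and lipid micelles against micelles without lipid gave 0 calls of 21, where edgeR called 0 of 15182 smORFs (0%) in each. These values and those that follow come from the fit without pairing. No member had an unadjusted p under 0.05 in it, where 619, 708 and 624 of all smORFs did, and DESeq2 called 2, 0 and 0 smORFs and 0 members. A fit of the 6 differentiated libraries that paired them by replicate number (replicate block) called 15, 1 and 5 smORFs and 0 members, with 0, 1 and 2 members at an unadjusted p under 0.05. The first 2 comparisons share the control libraries.

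IEC_05820 gave a log2 difference of -0.12 ± 0.24 (SE, with a 95% interval of -0.63 to 0.38) with micelles without lipid and of -0.08 ± 0.24 (-0.58 to 0.42) with lipid micelles, both against control, and the difference between the micelles was 0.04 ± 0.24 (-0.46 to 0.55). IEC_10767 gave -0.06 ± 0.24, -0.03 ± 0.23 and 0.03 ± 0.23. For both, changes of more than 1 on the log2 scale lie outside the intervals. IEC_05821 gave -0.06 ± 0.29, -0.25 ± 0.29 and -0.19 ± 0.29.

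IEC_09744 gave -0.39 ± 0.35 (-1.12 to 0.33) with micelles without lipid, -0.45 ± 0.34 (-1.17 to 0.26) with lipid micelles and -0.06 ± 0.35 (-0.80 to 0.68) between them. IEC_09743 gave -0.52 ± 0.45, -0.46 ± 0.44 and 0.06 ± 0.46. For IEC_09744 a fall of 1 on the log2 scale lies inside both intervals against control.

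Over the 21 smORFs the log2 differences ran from -0.72 to 0.79 with micelles without lipid (median -0.06, 9 above 0 and 12 below), from -1.07 to 0.15 with lipid micelles (median -0.22, 5 above and 16 below) and from -0.99 to 0.14 between the micelles (median -0.06, 7 above and 14 below). The medians over all smORFs were 0.01, 0.00 and -0.01. Many of the 21 share reads, so the numbers above and below 0 do not count separate measurements. All 21 intervals held 0 in each comparison, and 6, 6 and 8 of them lay within 1 of 0 on the log2 scale. The extremes were IEC_10941 with lipid micelles (-1.07 ± 0.53, edgeR adjusted p = 0.957) and IEC_04407 between the micelles (-0.99 ± 0.54, adjusted p = 0.999). IEC_10941 carries the low lipid micelle replicate 1, and without that library its value was -0.45 ± 0.52, while that of IEC_10701 went from -0.89 ± 0.53 to -0.23 ± 0.49. Without lipid micelle replicate 2 they were -2.47 ± 0.74 and -2.56 ± 0.73, so both values turn on which lipid micelle library is kept.

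**Figure D5:**
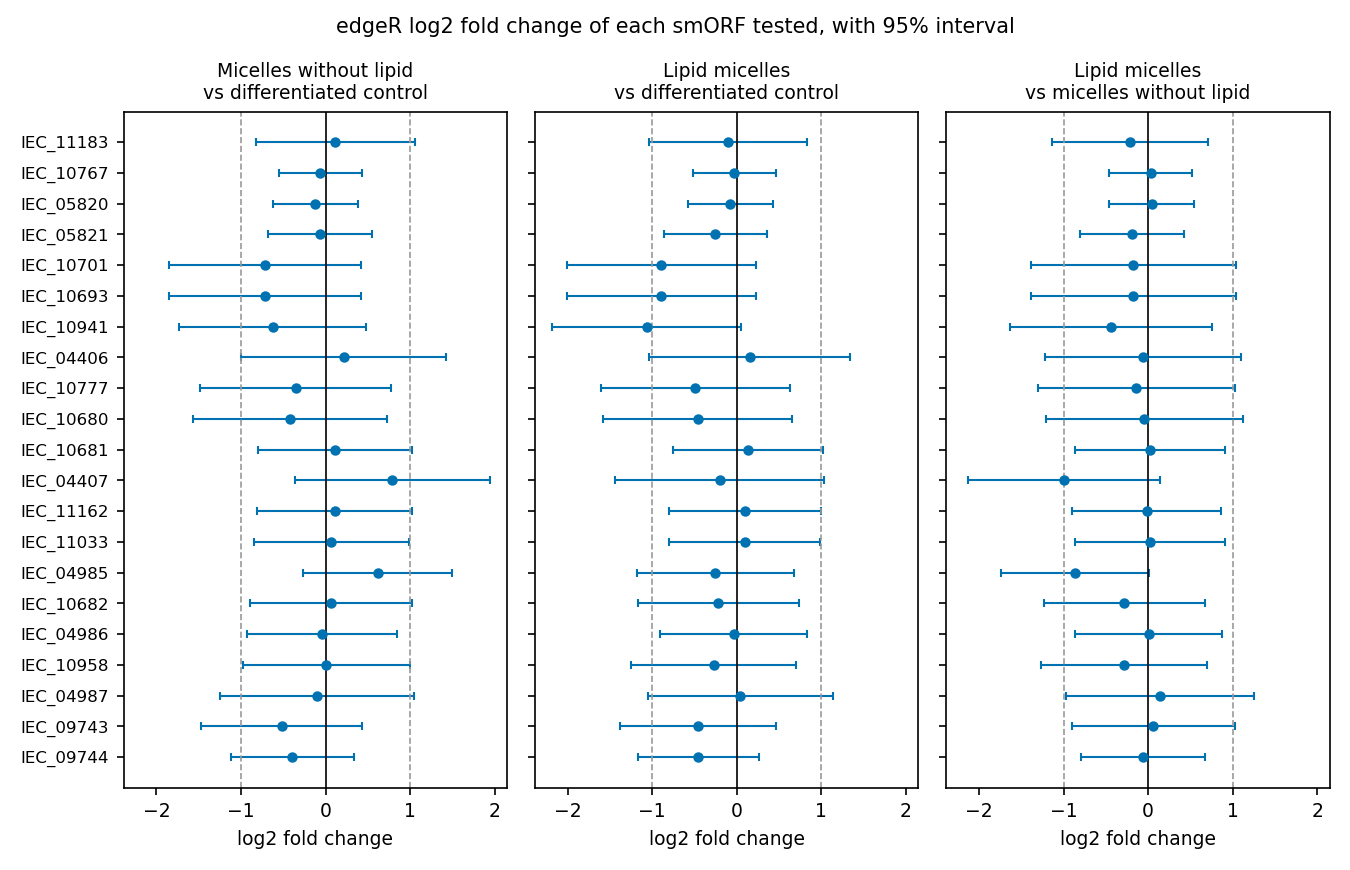
Log2 difference of each of the 21 fitted smORFs in the 3 micelle comparisons, with bars for the 95% interval from edgeR. All intervals cross 0, and those of IEC_05820 and IEC_10767 are the narrowest, within 1 of 0.

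Some smORFs had libraries that did not overlap between groups, which with 2 against 2 is common over the whole table. With micelles without lipid 1 of 21 stood above control (IEC_04407), against 16.2% of all smORFs tested, and 5 stood below (IEC_05820, IEC_10701, IEC_10693, IEC_10941 and IEC_09744), against 15.9%. With lipid micelles 0 stood above control, against 18.3%, and 6 stood below (IEC_05821, IEC_10701, IEC_10693, IEC_10941, IEC_09743 and IEC_09744), against 17.6%. Between the micelles 0 stood above in lipid micelles, against 15.8%, and 4 below (IEC_11183, IEC_05821, IEC_04407 and IEC_04985), against 16.9%. IEC_10701, IEC_10693 and IEC_10941 are counted separately here although they share their reads.

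The nearest host genes with a smORF past the filter did not all move one way in differentiated against undifferentiated cells. Each gene is represented by its tested smORF with the highest mean level, of 6 tested in ITSN1, 3 each in SLC5A3, SETD4, PPP2R5C and ANKRD9, 2 in PAPOLA and 1 each in IFNGR2 and CCNK. Distances are those to the nearest tested smORF of the gene, which can be another than the one that represents it. Around LINC00649, that of SLC5A3, a myo-inositol transporter, 118545 bases after it, had 22 and 16 counts in undifferentiated and 70 and 116 in control cells (log2 difference 2.18 ± 0.30, edgeR adjusted p = 2.96e-05). That of ITSN1, an endocytic scaffold, 288671 bases before it gave -0.14 ± 0.41. That of IFNGR2, an interferon gamma receptor subunit, 527865 bases before it gave 0.16 ± 0.30, and that of SETD4, 2082479 bases after it, -0.64 ± 0.36. Around LINC00239, that of PPP2R5C, a phosphatase regulatory subunit, 77349 bases after it gave -0.49 ± 0.33. That of ANKRD9, 776040 bases after it, gave 2.41 ± 0.46 (edgeR adjusted p = 0.000732). That of CCNK, which encodes cyclin K, 2249000 bases before it gave -1.33 ± 0.38 (edgeR adjusted p = 0.0110). That of PAPOLA, a poly(A) polymerase, 5227891 bases before it gave 0.06 ± 0.61. Several of these nearest genes thus lie far from the loci.

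The smORFs of other genes with the pattern most like IEC_05820 across the 8 libraries, by Pearson r of log2 CPM, lay in SLC2A5, the fructose transporter GLUT5 (r = 0.997), NDRG1 (0.995) and SLCO2B1, an organic anion transporter (0.994). Those most like IEC_09744 lay in SULT1B1, a sulfotransferase (0.995), PRLR, the prolactin receptor (0.994), and MIR210HG, a non-coding host gene (0.994). IEC_05820 and IEC_09744 had r = 0.970. The 8 points share libraries and differ mainly between undifferentiated and differentiated cells, and 599 and 629 of 4423 host genes passed 0.9, so these values describe a common pattern.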

How the data were processed

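Ribo-Seq was measured in 8 Caco-2 libraries, 2 in each of 4 groups. The authors aligned reads to hg38 with STAR (2.7.11a per the labels), predicted smORFs with StringTie and RibORF, kept scores of at least 0.7 and lengths up to 150 amino acids, and deposited counts per smORF made with HOMER. The deposited RibORF and PhyloCSF values are scores per smORF, not per group. Options for strand, multiple sites and overlaps are not given in the sources used here. The labels do not say whether replicates came from separate cultures, so p-values measure only the spread between these libraries, which may be technical.

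Counts were fitted with edgeR 4.0.16 in R 4.3.3 (filterByExpr, trimmed mean of M values, quasi-likelihood test, 1 term a group, all 8 libraries, Benjamini-Hochberg over 15182 smORFs). A call needs an adjusted p under 0.05 and at least 1 on the log2 scale. DESeq2 1.42.0, other filters, size factors, a replicate block and left-out libraries were alternatives. The standard error was derived from the edgeR F statistic. Ratios pool the 2 libraries, with exact 95% counting intervals that leave out replicate spread. The fit was tested on simulated data. Same-numbered differentiated libraries deviated together (r = 0.198, 0.119 and 0.109 for the 3 pairs of groups), and the undifferentiated ones did not deviate with them (-0.07, -0.02 and 0.02). Pairing entered only the fits with a replicate block, and the main fit left it out. Marker lists hold host genes of smORFs only.

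The members, lists and tests were chosen with earlier results of these data known. Members with at least 10 counts in a library were all described, which took in all 22. Neighbours were the 2 nearest host genes on each side with a tested smORF, and likeness was the 3 highest Pearson r for IEC_05820 and IEC_09744. Sequences are hg38 bases at the deposited coordinates.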

Additional observations from a re-analysis of the deposited data

Results flagged for a closer look

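IEC_04985 in LINC00649 stood on opposite sides of the control mean with the 2 kinds of micelle. Relative to the control mean in log2 CPM, the 2 libraries with micelles without lipid stood at 0.397 and 0.763 (mean 0.58), and the 2 with lipid micelles at -0.268 and -0.164 (mean -0.22). Both effects share the control libraries, whose counts of 20 and 16 are 39.1 and 20.8 CPM, so the difference is that between the micelles. There edgeR gave -0.87 ± 0.42 (SE) on the log2 scale, with an adjusted p = 0.999, which was not a call. The lipid micelle libraries, at 25.3 and 23.3 CPM, lay between the control libraries. Without differentiated control replicate 1 both differences from control were above 0 (1.08 and 0.21 on the log2 scale), so the opposite sides rest on that library. This pattern was met by 1 of 21 smORFs of the loci and by 1199 of 15182 in all (7.90%).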

How the results depend on the processing

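The loci were picked with the contrast of differentiated control and undifferentiated cells known. Its counts here test nothing, and nothing is read from them. In it 20 of 21 smORFs were called, all higher, where 2692 of all 15182 tested were called higher (17.7%). Median-ratio size factors, the replicate block or only the 4 libraries compared gave 20 each, where 2646, 2733 and 2658 of 15182 were called higher. DESeq2 called 12, where 1806 of 15182 were higher. A minimum of 10 counts in every library left 3 smORFs, of which 3 were called, where 832 of 6629 were higher. With no filter 21 of 22 were called, where 3176 of 22770 were higher. Leaving out 1 library kept all 21 log2 differences above 0. Fewer smORFs were called in some of these fits, of the loci and of all tested. The median over the 21 was 2.24 in the main fit, where that over all smORFs was 0.011. It was 1.92 without undifferentiated replicate 1 (0.055 over all) and 2.28 without differentiated control replicate 2 (0.00056 over all). In the micelle comparisons 0 members were called in all settings. Of 1230 recomputed fold changes 1136 kept direction and side of the threshold and 35 lost the call, all against undifferentiated cells, where the cause was not tested. The rest changed sign with no call in either setting. In 1 the reported value exceeded its standard error: IEC_09743 with micelles without lipid went from -0.52 to 0.059 without micelles without lipid replicate 2, and to -1.32 without replicate 1 of that group. In 58 the reported value lay within 1 standard error of 0, though the new value could lie farther, as for IEC_09743 between the micelles (0.06 to -0.52 without micelles without lipid replicate 2). Over all smORFs, calls in either direction against undifferentiated cells were 5060, with 3301 by DESeq2 and 1562 at 10 counts in every library. Micelle calls were 0, 0 and 0, but 36, 4 and 23 without a filter, 15, 0 and 3 with the block in all 8 libraries, 2, 0 and 0 by DESeq2, and 22 for micelles without lipid against control without micelles without lipid replicate 1. Counts under 10 in undifferentiated cells limit most ratios, and overlapping frames share reads that the table cannot separate.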
